A study of Mus musculus with 12 samples.

Results

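The BCL2 family survival genes were followed on 12 arrays of sorted mouse regulatory T cells (Treg, CD4 T cells that restrain immune responses). The genes were taken by symbol: Bcl2, Bcl2l1, Mcl1, Bcl2l11, Pmaip1, Bbc3, Bid, Bad, Bak1 and Bax, 10 genes among 15544 features that entered the tests. All 10 were found, through 19 of the 41174 probes, and each gene was represented by its brightest probe. Those 10 probes were well above background on all 12 arrays, so no member was lost to the filter on dim probes. The rule itself uses symbols and brightness and no difference between groups, but the list of genes was chosen with earlier results of these data known.

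The study compared Treg that make interleukin-10, Treg that do not, Treg of tumours as a whole and Treg of the spleen, with 3 arrays in each of 4 groups. IL10+ and IL10- tumour Treg were sorted from MC38 tumours (a mouse colon carcinoma line, grown under the skin) of VERT-X mice, whose Il10 locus drives a green reporter, by CD25 and CD120b (Tnfrsf1b) and then by the reporter. Total tumour Treg were sorted from MC38 tumours of FoxP3-EGFP mice by the Foxp3 reporter, and spleen Treg by the same reporter from FoxP3-EGFP mice without tumours. All mice were on the C57BL/6 background, every group came from a reporter strain, tumours were pooled before sorting, and each population came from 3 experiments. The ages of the mice are not given in the sources used here. Total tumour against spleen Treg therefore differ in tissue and in bearing a tumour, within 1 strain and 1 gate. IL10+ or IL10- tumour Treg against spleen Treg differ in tissue, strain and gate together, which cannot be told apart. The 3 comparisons against spleen share the same 3 spleen arrays.

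BCL2 family proteins decide at the mitochondrial outer membrane whether a cell dies. The guardians (BCL2, BCL-xL from Bcl2l1, and MCL1) hold the effectors BAX and BAK in check. BH3-only proteins (BIM from Bcl2l11, NOXA from Pmaip1, PUMA from Bbc3, BID and BAD) bind the guardians or the effectors and tip the balance towards pore formation and cytochrome c release. In Treg, interleukin-2 acting through STAT5 supports BCL2 and MCL1, BIM drives the loss of cells when interleukin-2 is scarce, and MCL1 is needed for Treg to persist.

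The stretches of 250 bases before the annotated start sites are shown for the 3 guardians and for Bcl2l11, because Bcl2 and Mcl1 were lower and Bcl2l1 higher in tumour Treg while probes of Bcl2l11 disagreed. They are RefSeq sequence of assembly GRCm38.p6, written 5′ to 3′ on the strand of the gene, for chr1:106714291-106714540 (minus strand), chr3:95658471-95658720 (plus strand), the first of 2 Bcl2l11 start sites, chr2:128125788-128126037 (plus strand), and the most upstream of 3 Bcl2l1 start sites, chr2:152831729-152831978 (minus strand). Capitals mark matches on either strand to 5 motifs: the FOXO core GTAAACA, the STAT site TTCNNNGAA, the CRE half-site TGACGT, the ETS core CCGGAAG and the E-box CACGTG, of which none contains another.
Bcl2: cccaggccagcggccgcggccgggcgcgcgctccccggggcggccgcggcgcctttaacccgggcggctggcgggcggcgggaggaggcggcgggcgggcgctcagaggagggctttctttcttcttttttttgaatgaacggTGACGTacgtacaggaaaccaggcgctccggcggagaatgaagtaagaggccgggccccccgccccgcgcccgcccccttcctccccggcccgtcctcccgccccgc
Mcl1: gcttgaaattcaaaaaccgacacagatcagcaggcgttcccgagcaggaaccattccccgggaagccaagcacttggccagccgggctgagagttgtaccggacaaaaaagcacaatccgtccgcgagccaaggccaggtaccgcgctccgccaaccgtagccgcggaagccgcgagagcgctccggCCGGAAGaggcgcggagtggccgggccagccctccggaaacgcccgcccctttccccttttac
Bcl2l11: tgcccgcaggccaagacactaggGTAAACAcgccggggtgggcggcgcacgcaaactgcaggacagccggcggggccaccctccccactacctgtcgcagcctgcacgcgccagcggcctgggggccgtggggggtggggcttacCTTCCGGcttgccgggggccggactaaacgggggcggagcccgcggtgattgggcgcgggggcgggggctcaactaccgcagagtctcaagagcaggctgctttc
Bcl2l1: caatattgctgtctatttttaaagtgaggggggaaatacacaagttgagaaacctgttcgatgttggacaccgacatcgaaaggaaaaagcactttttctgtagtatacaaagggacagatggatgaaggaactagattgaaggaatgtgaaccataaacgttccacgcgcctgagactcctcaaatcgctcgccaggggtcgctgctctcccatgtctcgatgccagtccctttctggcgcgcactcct

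The Bcl2 window held 1 CRE half-site at position -107 from the start, and the Mcl1 window held 1 ETS core at position -63. Bcl2l11 had a FOXO core, the letters bound by forkhead factors such as FOXO1, at position -227 and an ETS core at position -105. None of the 5 motifs was found in the Bcl2l1 windows. Over the 15 such windows of 9 members, 2 held a FOXO core (the other in a Bbc3 window), 0 a STAT site, 1 a CRE half-site, 2 an ETS core and 2 an E-box. Among all 32851 windows of the same length, 3.17% held a FOXO core, 7.02% a STAT site, 6.47% a CRE half-site, 6.91% an ETS core and 6.02% an E-box. A match of letters is a description of these windows and not a site of binding.

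Each level is a log2 spot intensity, corrected for background, from which the 75th percentile of its own array was taken, so a level of 0 equals that percentile. Levels of different genes come from different probes and were not set against each other. Differences come from a limma fit over all 12 arrays, and calls required an adjusted p (Benjamini-Hochberg over all features) below 0.05. Of the probes on an array, 42.2% (IL10+ replicate 3) to 65.4% (IL10- replicate 1) were well above background. Arrays of a group correlated at 0.927 to 0.989. Il10, the gene behind the sort, read 4.69 ± 0.89 in IL10+ and 0.05 ± 0.43 in IL10- tumour Treg (SD, n = 3 each). Foxp3 was read at 3.74 ± 0.97 in IL10+ and 4.06 ± 0.90 in IL10- tumour Treg, but its probe was not well above background on any array of total tumour or spleen Treg (-6.36 ± 0.18 and -6.06 ± 0.28, SD, n = 3 each), although both were sorted by a Foxp3 reporter. All 9 markers of B cells and plasma cells were well above background on every spleen array, with a summed log2 level of 7.31 to 8.58, against 3.96 to 5.40 on the 9 tumour arrays. Markers of macrophages and monocytes ran the other way, at 8.50 to 9.75 on the tumour arrays and 5.43 to 6.71 on the spleen arrays. The arrays lay on 4 slides: slide 2 held the 3 spleen arrays with total tumour replicate 3, slide 3 held the 3 IL10- arrays with IL10+ replicate 2, slide 1 held IL10+ replicate 1 with total tumour replicates 1 and 2, and slide 4 held IL10+ replicate 3.

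**Figure D1:**
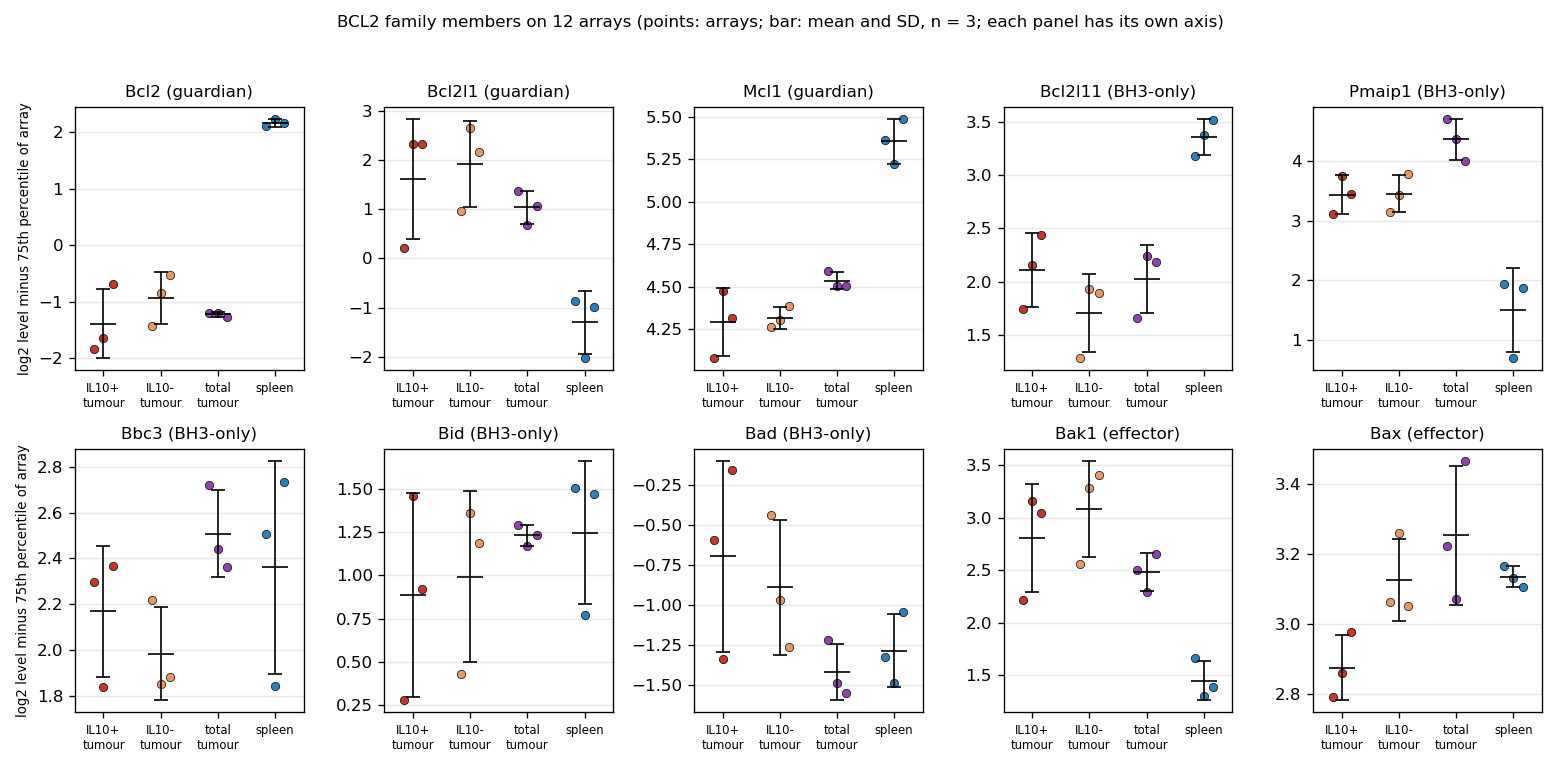
Levels of the 10 genes on each array (y axis, log2 minus the 75th percentile of the array, with its own range in each panel; x axis, the 4 groups; points are arrays, bars the mean and SD, n = 3). The brightest probe of each gene is drawn. By it, Bcl2, Mcl1 and Bcl2l11 sat lower in all 3 tumour groups than in spleen, and Bcl2l1, Pmaip1 and Bak1 sat higher. Bid, Bad and Bbc3 overlapped with spleen in every tumour group. Other probes of Bcl2l11 were higher in tumour, and the second Mcl1 probe overlapped between total tumour and spleen.

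Tumour Treg differed from spleen Treg at 6 of the 10 genes, and the guardians did not move together. In total tumour Treg, the brightest probes of Bcl2, Mcl1 and Bcl2l11 fell and those of Bcl2l1, Pmaip1 and Bak1 rose relative to spleen, while Bbc3, Bid, Bad and Bax did not pass the test. Other probes of Bcl2l11 rose, and the second Mcl1 probe was not called, as given for each gene. By the brightest probes, the same 3 genes were called lower and the same 3 higher in IL10+ and in IL10- tumour Treg against spleen. These counts stand beside large changes everywhere on the array: 42.3% of all features were called between total tumour and spleen Treg (22% higher, 20.3% lower), 50.8% between IL10+ tumour and spleen (23.9% higher, 26.9% lower) and 49% between IL10- tumour and spleen (24.3% higher, 24.7% lower). Groups did not overlap with spleen at 6 of the 10 genes in total tumour, 7 in IL10+ and 6 in IL10- tumour Treg, beside 65.7%, 57.8% and 61.4% of all features. The median difference of the 10 genes was 0.05 for total tumour, -0.23 for IL10+ tumour and -0.13 for IL10- tumour Treg, against -0.01, -0.06 and 0.00 over all features. In bulk RNA, fewer cells of a type and less RNA per cell cannot be told apart.

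Bcl2, the founding guardian, showed the largest of the 10 differences in total tumour Treg. Its probe (Bcl2, chr1:108539940-108539999 on mm8, minus strand) read -1.20, -1.19 and -1.28 in total tumour Treg, against 2.10, 2.24 and 2.16 in spleen Treg. IL10+ tumour Treg had -1.83, -1.64 and -0.69, and IL10- tumour Treg had -1.43, -0.85 and -0.53. Every one of the 9 tumour arrays lay below every spleen array, and the 3 tumour groups overlapped with each other. The difference was -3.39 ± 0.30 (SE) for total tumour against spleen, or 10.5-fold lower (adjusted p = 2.59e-05). It was -3.55 for IL10+ tumour (11.7-fold lower, adjusted p = 1.35e-05) and -3.10 for IL10- tumour Treg (8.58-fold lower, adjusted p = 3.42e-05), each with the same SE. The other Bcl2 probes pointed the same way, with differences of -4.25 ± 0.18 (adjusted p = 5.46e-07) and -3.72 ± 0.33 (adjusted p = 2.66e-05) for total tumour against spleen in a fit of single probes. Over all 19 probes of the 10 genes, 12 were called between total tumour and spleen (7 higher, 5 lower), beside 40.5% of single probes. The 7 include a Bcl2l11 probe that was not well above background on any spleen array. With the slide as a block, which for this contrast leaves total tumour replicate 3 against the 3 spleen arrays of slide 2, the Bcl2 difference was -3.44 (adjusted p = 0.00154). The Bcl2 difference also stayed called with that block in IL10+ (-4.07, adjusted p = 0.0059) and IL10- tumour Treg (-3.36, adjusted p = 0.0288), where no slide holds both groups.

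Bcl2l1 encodes BCL-xL, the guardian that many activated lymphocytes rely on. It read 1.36, 0.69 and 1.06 in total tumour Treg, against -0.87, -2.03 and -0.99 in spleen Treg (chr2:152520890-152520949, minus strand). Levels were 0.20, 2.32 and 2.32 in IL10+ tumour Treg, and 0.95, 2.64 and 2.15 in IL10- tumour Treg. All 9 tumour arrays lay above all 3 spleen arrays. Replicate 1 was the low one in both VERT-X groups, and spleen replicate 2 was the low spleen array. The rise was 2.33 ± 0.62 in total tumour Treg (SE, 5.04-fold, adjusted p = 0.0129), 2.91 in IL10+ tumour (7.52-fold, adjusted p = 0.00316) and 3.21 in IL10- tumour Treg (9.28-fold, adjusted p = 0.00194). With normexp background correction the IL10+ rise was 1.32 (adjusted p = 0.0231). The other probes of the gene gave 2.34 ± 0.61 (adjusted p = 0.0119) and 2.18 ± 0.44 (adjusted p = 0.00343) for total tumour against spleen. The slide block left the total tumour difference at 2.36 but not called (adjusted p = 0.0577), and took it to 1.54 in IL10+ (adjusted p = 0.34) and 1.13 in IL10- tumour Treg (adjusted p = 0.578).

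Mcl1, the short-lived guardian that Treg depend on, fell by less. Its brightest probe (chr3:95748337-95748396, plus strand) read 4.59, 4.50 and 4.51 in total tumour Treg, against 5.36, 5.22 and 5.49 in spleen Treg. IL10+ tumour Treg had 4.08, 4.48 and 4.31, and IL10- tumour Treg had 4.26, 4.30 and 4.39. Neither the total tumour nor the VERT-X arrays reached the lowest spleen array. The difference was -0.82 ± 0.14 (SE) in total tumour Treg, 1.77-fold lower (adjusted p = 0.00119), -1.07 in IL10+ tumour (adjusted p = 0.000178) and -1.04 in IL10- tumour Treg (adjusted p = 0.000231). The slide block kept all 3 calls (-0.85, adjusted p = 0.0212; -1.32, adjusted p = 0.0242; -1.48, adjusted p = 0.0437).

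The second Mcl1 probe did not repeat that fall in total tumour Treg. It lies nearer the start of the gene (chr3:95747025-95747084) and read 4.62, 4.20 and 3.89 in total tumour Treg, against 4.01, 3.83 and 4.08 in spleen Treg. The groups overlapped, with a difference of 0.26 ± 0.19 (SE, adjusted p = 0.29). In IL10+ and IL10- tumour Treg it was 0.42 and 0.49 log2 units lower than in spleen, without overlap but short of the threshold (adjusted p = 0.0864 and 0.0521). Averaging both probes gave -0.28 for total tumour against spleen (adjusted p = 0.163), and background correction by normexp gave -1.10 (adjusted p = 0.194) there and -1.15 (adjusted p = 0.152) in IL10- tumour Treg, so those calls were lost. In IL10+ tumour Treg normexp gave -2.38.

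Among the BH3-only genes, Pmaip1 rose and Bcl2l11 fell at its brightest probe. Pmaip1 (chr18:66590803-66590862, plus strand) encodes NOXA, which binds MCL1 above all. It read 4.72, 4.38 and 4.02 in total tumour Treg, against 1.94, 0.69 and 1.87 in spleen Treg. The VERT-X groups lay between, with 3.11, 3.76 and 3.46 in IL10+ tumour Treg and 3.16, 3.44 and 3.78 in IL10- tumour Treg. The ranges of total tumour, VERT-X tumour and spleen Treg did not overlap. The rise over spleen was 2.87 ± 0.35 in total tumour Treg (SE, 7.32-fold, adjusted p = 0.000172), 1.94 in IL10+ tumour (3.85-fold, adjusted p = 0.0012) and 1.96 in IL10- tumour Treg (3.89-fold, adjusted p = 0.00123). The total tumour call held with the slide as a block (2.52, adjusted p = 0.0175). The VERT-X values fell to 1.08 (adjusted p = 0.351) and 0.78 (adjusted p = 0.597) under it, and normexp took the IL10+ value to 0.67 (adjusted p = 0.356).

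Bcl2l11, the gene of BIM, is measured by 3 probes that point in opposite directions. The brightest (chr2:127853756-127853815, plus strand) read 1.66, 2.24 and 2.18 in total tumour Treg, against 3.18, 3.38 and 3.52 in spleen Treg. IL10+ tumour Treg had 1.74, 2.16 and 2.43, and IL10- tumour Treg had 1.28, 1.93 and 1.89. By this probe all tumour arrays were below all spleen arrays. The difference was -1.34 ± 0.25 in total tumour Treg (SE, 2.52-fold lower, adjusted p = 0.00207), -1.25 in IL10+ (adjusted p = 0.00226) and -1.66 in IL10- tumour Treg (adjusted p = 0.000459).

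The middle Bcl2l11 probe, whose deposited coordinates run over 11096 bases (chr2:127838598-127849693), went the other way. It read -1.28, -1.05 and -1.42 in total tumour Treg, against -2.59, -2.09 and -2.40 in spleen Treg, a rise of 1.11 ± 0.27 (SE, adjusted p = 0.00804). It rose by 1.51 in IL10+ tumour Treg (adjusted p = 0.00113), while IL10- tumour Treg stood 0.70 above spleen (adjusted p = 0.052). The third probe lies furthest upstream (chr2:127820441-127821122). Here total tumour Treg had -1.55, -1.51 and -1.53, and the spleen arrays, none of them well above background, had -4.17, -4.80 and -4.41. Against the lowest reliable signal of those arrays, total tumour Treg were at least 5.75-fold higher. The bound was 4.15-fold for IL10+ and 3.88-fold for IL10- tumour Treg, and these bounds were not tested. From the spleen values as read, the differences were 2.93 in total tumour, 2.46 in IL10+ and 2.36 in IL10- tumour Treg. This probe passed the filter on dim probes only through the tumour arrays, so no p is given for it. Averaged over its 3 probes, Bcl2l11 was 0.90 higher in total tumour, 0.91 higher in IL10+ and 0.47 higher in IL10- tumour Treg. The third probe enters these means with spleen readings that were not well above background, so they were not read as a test of the gene. No single direction can therefore be given for the gene. Which exons or transcript forms the probes lie in was not analysed here. With the slide as a block the brightest probe kept its direction without a call (-1.18, adjusted p = 0.0519 in total tumour; -1.38, adjusted p = 0.107 in IL10+; -1.84, adjusted p = 0.102 in IL10- tumour Treg), and normexp took it to -2.28 in IL10+ tumour Treg (adjusted p = 0.000895).

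**Figure D2:**
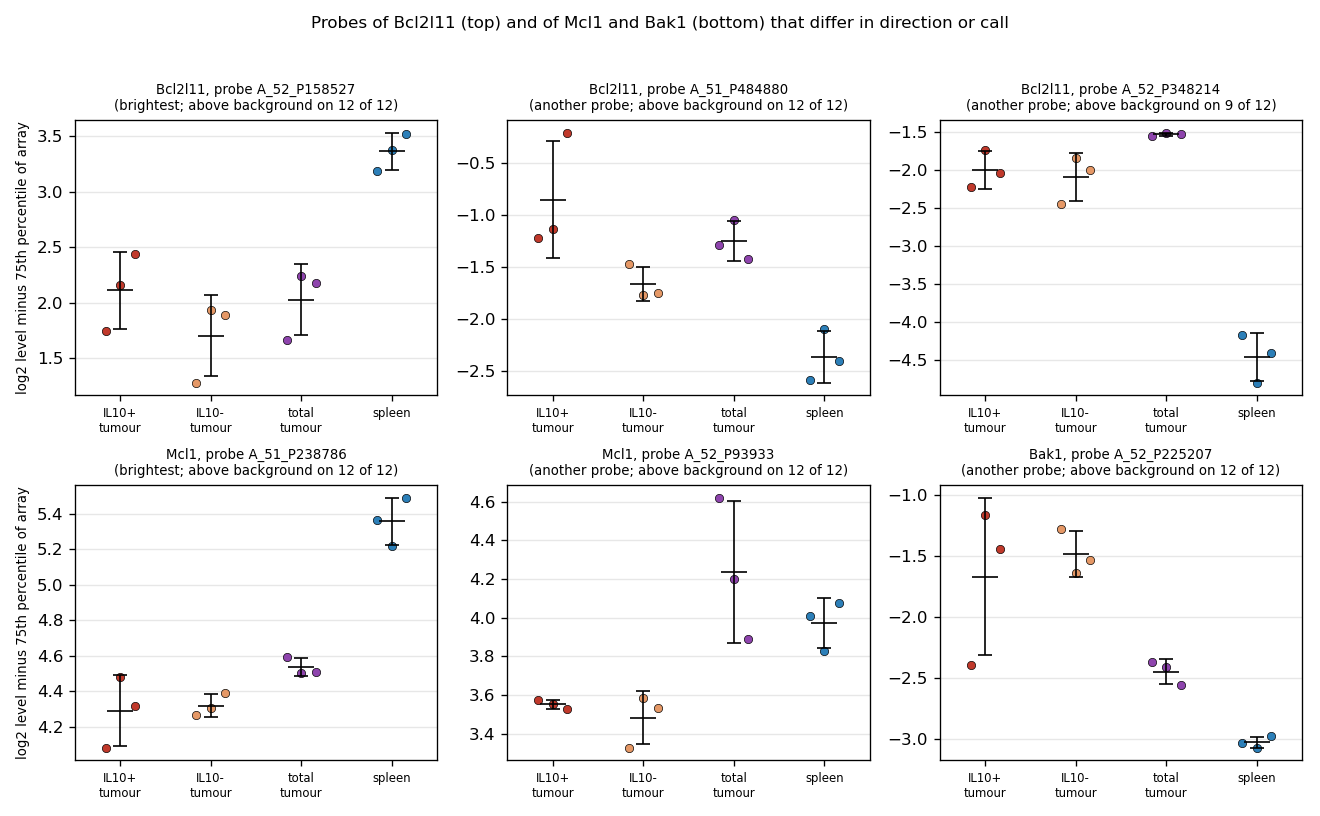
Levels at the probes of Bcl2l11 (top row), the 2 probes of Mcl1 and the second probe of Bak1 (y axis, log2 minus the 75th percentile of the array; x axis, the 4 groups; points are arrays, bars the mean and SD, n = 3). The brightest Bcl2l11 probe is lower in all tumour groups than in spleen and the other Bcl2l11 probes are higher, while the second Mcl1 probe overlaps between total tumour and spleen.

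Bbc3, Bid and Bad did not pass the test in any comparison with spleen. Their probes lie at chr7:15476576-15476635 (plus strand), chr6:120859065-120859124 (minus strand) and chr19:7009172-7009231 (plus strand), all on mm8 like every other probe given. Bbc3 (PUMA, a target of p53) read 2.72, 2.44 and 2.36 in total tumour Treg, against 2.51, 1.84 and 2.73 in spleen Treg, a difference of 0.15 with a 95% interval from -0.40 to 0.70. Bid, whose product links death receptors to mitochondria once caspase-8 cuts it, read 1.29, 1.17 and 1.23 against 1.51, 0.77 and 1.47. Its difference was -0.02, and the interval from -0.77 to 0.74 leaves room for changes of well over 1.5-fold either way. Bad, which binds BCL2 and BCL-xL unless phosphorylated, read -1.22, -1.49 and -1.55 in total tumour Treg, against -1.33, -1.49 and -1.04 in spleen Treg, a difference of -0.14 (interval from -0.81 to 0.54). The VERT-X arrays overlapped with spleen at all 3 genes, with differences from -0.38 to 0.59. Single arrays decided some of these calls. Without IL10+ replicate 2, Bad was called higher in IL10+ tumour Treg (0.91, adjusted p = 0.0199), and without spleen replicate 2, Bbc3 was called lower in IL10- tumour Treg (-0.64, adjusted p = 0.0388).

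The effectors parted, with Bak1 higher in tumour and Bax not. Bak1 encodes BAK, which sits in the mitochondrial membrane of living cells. It read 2.50, 2.29 and 2.66 in total tumour Treg, against 1.66, 1.30 and 1.38 in spleen Treg (chr17:26747611-26747670, minus strand). IL10+ tumour Treg had 2.22, 3.16 and 3.05, and IL10- tumour Treg had 2.56, 3.29 and 3.40. All 9 tumour arrays exceeded the spleen arrays. The rise was 1.04 ± 0.29 in total tumour Treg (SE, 2.05-fold, adjusted p = 0.0165), 1.36 in IL10+ (2.57-fold, adjusted p = 0.00322) and 1.64 in IL10- tumour Treg (3.11-fold, adjusted p = 0.0012). The second Bak1 probe was 0.58 ± 0.27 higher in total tumour Treg without a call (adjusted p = 0.115), and rose by 1.36 in IL10+ (adjusted p = 0.00233) and 1.54 in IL10- tumour Treg (adjusted p = 0.0012). The total tumour call was lost without total tumour replicate 3 (0.95, adjusted p = 0.0576), without spleen replicate 2 (0.96, adjusted p = 0.0527), with the slide as a block (1.21, adjusted p = 0.0508) and with normexp (0.82, adjusted p = 0.244). The slide block also ended the calls in IL10+ (1.03, adjusted p = 0.206) and IL10- tumour Treg (0.96, adjusted p = 0.337), and normexp left 0.14 in IL10+ tumour Treg (adjusted p = 0.772).

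Bax, the effector that moves from the cytosol to mitochondria, hardly varied. It read 3.22, 3.07 and 3.47 in total tumour Treg, against 3.17, 3.13 and 3.11 in spleen Treg (chr7:45334141-45334296, minus strand). The difference of 0.12 ± 0.14 (SE, adjusted p = 0.531) has a 95% interval from -0.19 to 0.43, about as narrow as that of Mcl1. IL10- tumour Treg, at 3.06, 3.26 and 3.05, overlapped with spleen, while IL10+ tumour Treg, at 2.79, 2.86 and 2.98, lay below every spleen array by a difference of -0.26 that did not pass the test (adjusted p = 0.143). With normexp the same difference was -1.40 and called (adjusted p = 0.0333).

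**Figure D3:**
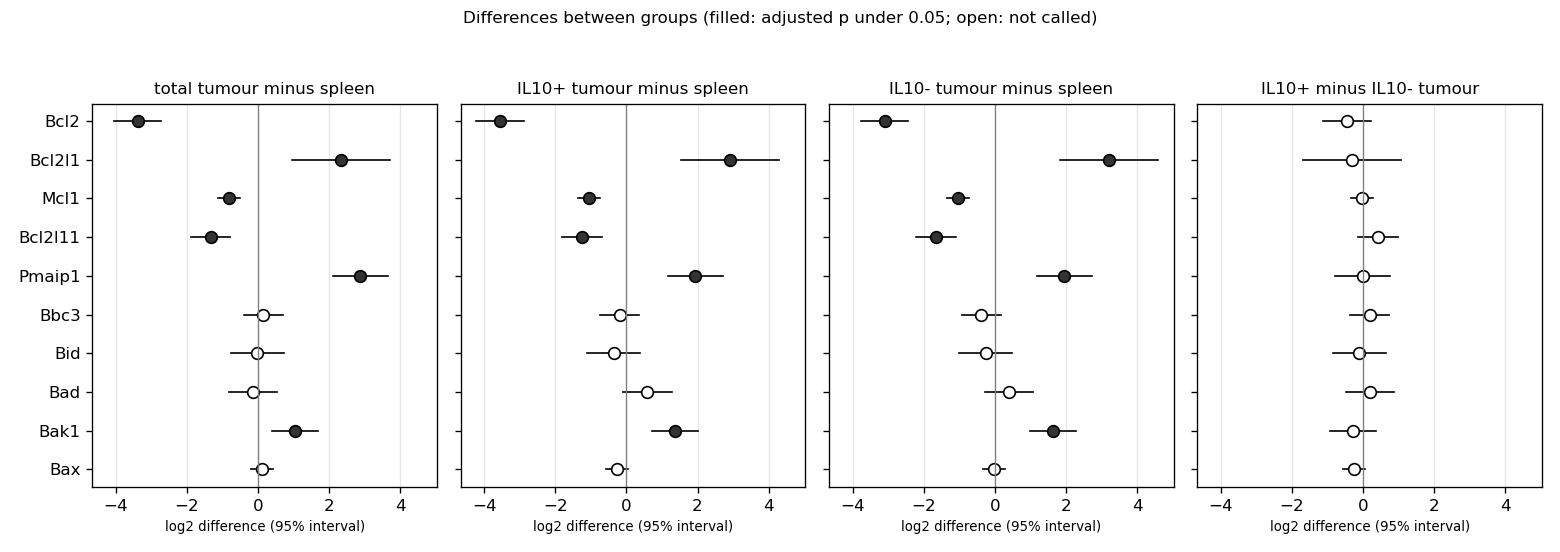
Differences of the 10 genes in 4 comparisons (x axis, log2 difference; points are estimates, lines 95% intervals; filled points passed an adjusted p of 0.05). Bcl2 stands furthest to the left and Bcl2l1 and Pmaip1 furthest to the right in the 3 comparisons with spleen, and no point is filled for IL10+ against IL10- tumour Treg.

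IL10+ and IL10- tumour Treg, both sorted from tumours of VERT-X mice, did not differ past the threshold at any of the 10 genes. None was called, against 8 of 15544 features (0.0515%; 0.00643% higher and 0.045% lower), and none had an unadjusted p under 0.05, against 4.63% of features. The median difference was -0.07, beside -0.04 over all features. Bcl2 had the largest difference, -0.45 (95% interval from -1.12 to 0.22), followed by Bcl2l11 at 0.41 (from -0.15 to 0.97). Bcl2l1 differed by -0.30, with the widest interval, from -1.68 to 1.07, which does not exclude a change of 2-fold either way. Mcl1 differed by -0.03 (from -0.34 to 0.28), and Pmaip1 by -0.02 (from -0.79 to 0.76). These intervals hold for the one background method. With normexp, Mcl1 differed by -1.22, Pmaip1 by -1.27, Bax by -1.33, Bak1 by -1.42 and Bcl2l1 by -1.17. All but the last lie outside the intervals of the main background method. So do Bcl2l11 at -0.53 and Bbc3 at -0.70 with normexp, which turned sign. None of the 10 was called with normexp either, but 4 had an unadjusted p under 0.05, with 4094 of all features. With the replicate number as a block in limma, none was called and 1 had an unadjusted p under 0.05, with 708 of all features. Bax was the single gene whose groups did not overlap, with 2.79, 2.86 and 2.98 in IL10+ tumour Treg, against 3.06, 3.26 and 3.05 in IL10- tumour Treg. Its difference was -0.25 (from -0.56 to 0.06, adjusted p = 0.9999), and 7.4% of all features had groups that did not overlap.

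Other probes of the members gave no call between the fractions either. The Bcl2 probe spotted 10 times read -2.49, -2.98 and -3.10 in IL10+ tumour Treg, against -2.20, -2.15 and -2.03 in IL10- tumour Treg, without overlap (difference -0.73 ± 0.18, SE, adjusted p = 0.609). One of the IL10+ arrays was not well above background at that probe. The dimmest Bcl2 probe pointed the other way (0.72 ± 0.33, adjusted p = 0.9999) but was not well above background on any IL10- array. The middle Bcl2l11 probe was 0.81 ± 0.27 higher in IL10+ than in IL10- tumour Treg, also without overlap (adjusted p = 0.9999). Within slide 3, where IL10+ replicate 2 lies beside the 3 IL10- arrays, Bcl2 differed by -0.71 and Bcl2l11 by 0.45, and the differences of Bcl2l1, Mcl1, Bid, Bad, Bbc3, Pmaip1 and Bak1 had the opposite sign to those over all arrays.

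Across the 4 groups, the order of means was spleen, IL10- tumour, total tumour and IL10+ tumour for Bcl2, where neighbours other than spleen overlapped. For Bcl2l1 and Bak1 it was IL10- tumour, IL10+ tumour, total tumour and spleen, again with spleen alone set apart. Pmaip1 was highest in total tumour, then IL10- tumour, IL10+ tumour and spleen, and the VERT-X groups were the neighbours that overlapped. For Mcl1 the order was spleen, total tumour, IL10- tumour and IL10+ tumour, with overlap between the VERT-X groups. Bid, Bad and Bbc3 overlapped at every step.

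Between total tumour and spleen Treg, genes of the wider family were called in both directions, as 22% of all features were called higher and 20.3% lower. Of 13 further family genes, 11 were on the array and 9 were tested. Bcl2a1b, Bcl2l2, Bok and Bnip3 rose and Bcl2l14 fell, with a median of 0.41 over the 9. Bok encodes a BAX-like effector and rose by 4.46 ± 0.54 (SE, adjusted p = 0.000173), to 0.66, 1.03 and 0.99 in total tumour Treg, against -3.39, -2.94 and -4.35 in spleen Treg. One spleen array was not well above background at Bok. Bnip3, a hypoxia-inducible mitophagy receptor, rose by 3.93 ± 0.16 (adjusted p = 6.61e-07), with 4.16, 3.87 and 4.24 against 0.18, -0.00 and 0.32. Its relative Bnip3l stood 0.01 from spleen (adjusted p = 0.978). Bcl2l14 fell by 1.91 on the log2 scale (SE 0.42, adjusted p = 0.00482), and only 1 of 3 total tumour arrays was well above background there. Bcl2l2, the guardian BCL-W, rose by 1.02 (adjusted p = 0.0189). Bcl2a1b, an NF-kB-induced guardian, rose by 1.10 (adjusted p = 0.0198), but its near-identical copies can share its probe. With the slide as a block, Bok, Bnip3 and Bcl2l14 stayed called.

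Downstream of the mitochondria, 5 of 13 tested genes rose in total tumour Treg and 1 fell, with a median of 0.29, a share called close to the 42.3% of all features. Cycs, which encodes cytochrome c, rose by 0.95 ± 0.14 (SE, adjusted p = 0.000641). Apaf1, the scaffold that cytochrome c activates, rose by 0.67 (adjusted p = 0.0204), and Vdac1, a channel of the outer membrane, by 1.06 (adjusted p = 0.00374). Cycs read 5.58, 5.77 and 5.81 in total tumour Treg, against 4.73, 4.91 and 4.67 in spleen Treg, without overlap. The initiator caspase gene Casp9 fell by 0.55 (adjusted p = 0.00663), and Casp6 stood at 0.13 (adjusted p = 0.5). The caspase inhibitors Xiap, Birc2 and Birc3 did not pass the test (0.22, 0.41 and 0.14). Apaf1, Cycs and Vdac1 stayed called with the slide as a block.

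Of 9 death receptor genes, 1 rose and 3 fell in total tumour Treg, with a median of -0.24, again close to the 42.3% called over all features. Tnfrsf10b, the mouse TRAIL receptor, rose by 3.45 ± 0.30 (SE, adjusted p = 2.57e-05). It read 0.24, -0.16 and -0.10 in total tumour Treg, against -3.04, -3.59 and -3.73 in spleen Treg. Fas, the receptor of Fas ligand, fell by 1.15 ± 0.17 (adjusted p = 0.000457), to 1.30, 1.12 and 1.18, against 2.44, 2.02 and 2.60 in spleen. Casp8, the initiator under these receptors, and its inhibitor Cflar fell by 0.57 and 0.56 (adjusted p = 0.0462 and 0.0392). The slide block kept the calls of Tnfrsf10b and Fas.

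Among 17 tested regulators of the family, 3 rose and 5 fell in total tumour Treg, with a median of -0.15, beside 42.3% of all features called. Cdkn1a, the p53-induced inhibitor of the cell cycle, rose by 5.27 ± 0.29 (SE, adjusted p = 2.06e-06), with 3.53, 3.18 and 3.06 in total tumour Treg, against -1.67, -2.73 and -1.65 in spleen Treg. E2f1, a cell cycle transcription factor, rose by 2.07 ± 0.13 (adjusted p = 3.52e-06), and Atf4, the factor of the integrated stress response, by 1.07 ± 0.20 (adjusted p = 0.00183). Foxo1, which in T cells drives Il7r and can drive Bcl2l11, fell by 1.06 (adjusted p = 0.0141), and Il7r, the interleukin-7 receptor whose signal sustains BCL2, fell by 1.37 (adjusted p = 0.005). Stat5b (-0.79, adjusted p = 0.012), the MCL1 ubiquitin ligase gene Huwe1 (-0.62, adjusted p = 0.0307) and the survival kinase gene Pim2 (-1.41, adjusted p = 0.00711) were lower as well. Trp53 (-0.92, adjusted p = 0.0644), Stat5a (-0.34, adjusted p = 0.295) and Il2ra (2.32 ± 1.12, SE, adjusted p = 0.121) did not pass the test. Il2ra was uneven in spleen Treg, at -0.64 ± 2.84 (SD, n = 3), with 2 of the 3 arrays well above background. With the slide as a block, Cdkn1a, E2f1 and Atf4 stayed called and none of the 5 lower genes did.

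Between IL10+ and IL10- tumour Treg, 0 of these 48 pathway genes was called by limma, and 2 had an unadjusted p under 0.05, beside 0.0515% and 4.63% of all features. The smallest p belonged to Fas, at 1.04, 1.27 and 1.10 in IL10+ tumour Treg, against 1.78, 1.87 and 1.68 in IL10- tumour Treg (difference -0.64 ± 0.17, SE, adjusted p = 0.58). Stat5a came next, with 2.07, 2.85 and 2.60 against 3.06, 3.62 and 3.38 (difference -0.85 ± 0.24, adjusted p = 0.705). Neither pair of groups overlapped, which held for 7.4% of all features. Htra2, Casp9, Birc2 and Pim2 were among the other pathway genes without overlap.

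**Figure D4:**
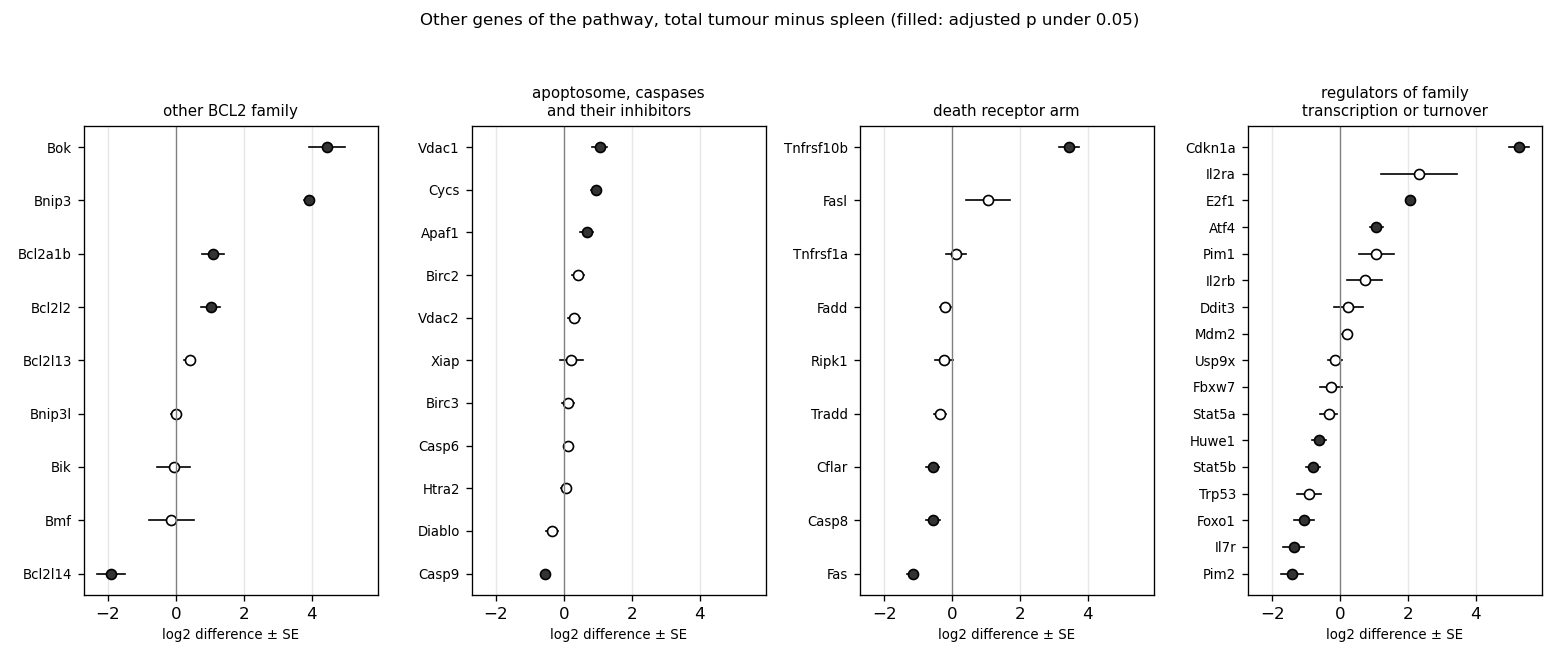
Other genes of the pathway in total tumour minus spleen Treg, in 4 lists (x axis, log2 difference, with lines of 1 SE; filled points passed an adjusted p of 0.05). Not every gene counted is drawn. Among the filled points, Bok, Bnip3, Tnfrsf10b, Cdkn1a and E2f1 lie furthest to the right, and Bcl2l14, Fas, Il7r and Pim2 furthest to the left.

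Markers of other cell types moved with the same contrast. Between total tumour and spleen Treg, 11 of 12 macrophage and monocyte markers were called higher, and 7 of 11 fibroblast and endothelial markers were higher and 1 lower. B cell and plasma cell markers were lower for 8 of 9. Over all features, 22% were called higher and 20.3% lower. Cd79a, Pax5 and Jchain were not well above background on any total tumour or IL10- array, and Cd79a, Ms4a1, Pax5 and Jchain were not on any IL10+ array. Lum, Pdgfra and Pdgfrb were not above background on any spleen array, nor was Trem2. Erythroid markers were lower for 3 of 5 tested genes, at a summed log2 level of 2.70 to 3.52 in total tumour Treg, against 8.29 to 9.61 in spleen Treg. CD8 T and NK cell markers were lower for 4 of 7. Of 6 dendritic cell markers, 1 was higher and 3 were lower, and 2 of 3 tested epithelial tumour markers were higher. Neutrophil markers gave 0 calls among 4 tested. The part of these cells in the levels of the BCL2 family genes was not tested. Among T cell and Treg markers, Ctla4 was called higher in total tumour Treg and none lower. With the slide as a block, 7 macrophage and monocyte markers stayed higher, and 7 fibroblast and endothelial markers stayed higher with 1 lower. Lower calls remained for 7 B cell and plasma cell, 3 erythroid and 1 CD8 T or NK cell marker. No T cell, dendritic or epithelial marker stayed called, beside 21.7% of all features.

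With the slide as a block, 3 of the 10 genes stayed called between total tumour and spleen Treg (Bcl2, Mcl1 and Pmaip1), beside 21.7% of all features. In IL10+ and in IL10- tumour Treg against spleen, Bcl2 and Mcl1 stayed called, beside 15.4% and 7.74% of features. Slide and group overlap so far that the block leaves few arrays to compare.

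**Figure D5:**
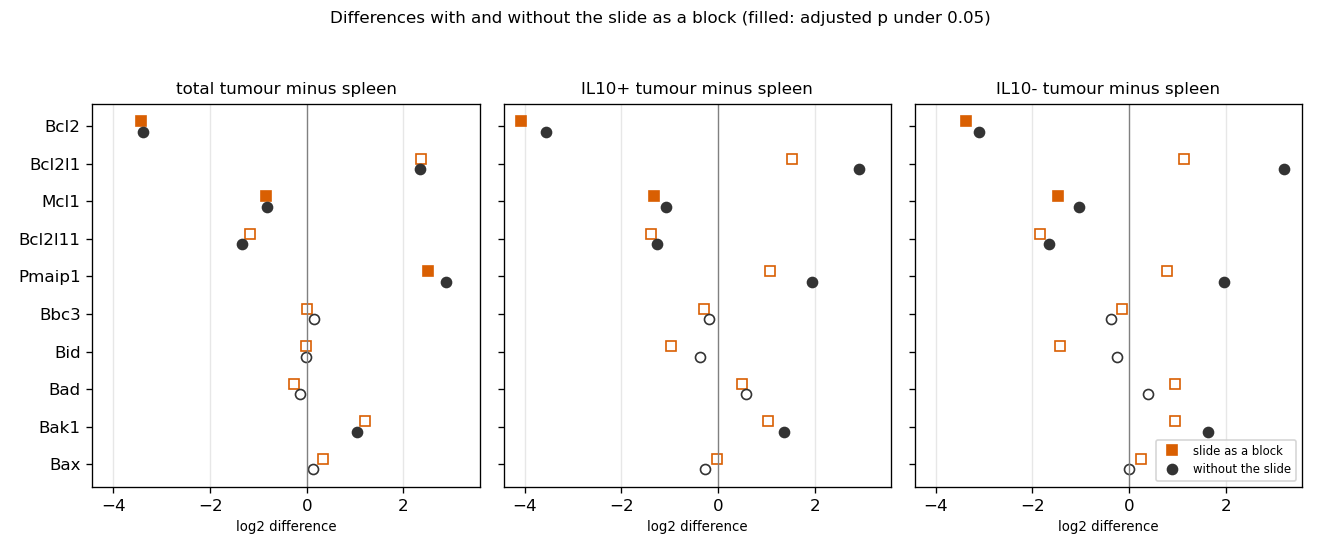
Differences of the 10 genes from spleen without the slide (circles) and with the slide as a block (squares) in the 3 tumour groups (x axis, log2 difference; filled symbols passed an adjusted p of 0.05). Bcl2 and Mcl1 stay filled in all 3 panels, whereas Bcl2l1 and Pmaip1 move towards 0 in the IL10+ and IL10- panels.

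The genes whose patterns over the 12 arrays lay nearest to each guardian were found by the root mean square difference of centred log2 levels, among 12553 named genes. For Bcl2 they were Pou6f1 (0.27), Col11a2 (0.29) and Ampd3 (0.38). Itga3 (0.25), Il3ra (0.35) and Cd99 (0.38) were nearest to Bcl2l1, and Rbm27 (0.08), Ppp1r21 (0.10) and Cacfd1 (0.11) to Mcl1. The points of each pattern share their arrays and groups, so this likeness is a description.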

How the data were processed

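RNA of sorted Treg was measured on 12 single-channel Agilent arrays, 3 for each of 4 groups taken from the sample labels. Spot intensities were deposited as scanner output of Agilent Feature Extraction 9.5.3.1, background-subtracted and detrended within each array but not normalized between arrays, per the file headers. Probe coordinates are on mm8, per the file headers. The labels speak of biotin-labelled RNA, whereas the file headers describe a one-colour Agilent scan. A deposited table of log10 values of the same arrays correlated with the log signals at 0.993 to 1.00. Its column medians are all 1.33, the sources used here do not give its normalization, and it served as an alternative.

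From the 43379 non-control spots of an array, outlier spots were left out (1161 over the 12 arrays) and spots of a probe were averaged to 41174 probes. The 75th percentile of log2 intensity was subtracted on each array, and it lay at an intensity of 92.3 to 606. The lowest, 92.3, was that of IL10+ replicate 3, and the next was 209 in IL10- replicate 2. Background correction by normexp used an offset of 50. The brightest probe stood for its gene and was then dropped if well above background on fewer than 3 arrays, giving 15544 features. Differences were tested two-sided with limma 3.58.1 in R 4.3.3 (lmFit and eBayes, 1 fit of all groups), with Benjamini-Hochberg adjustment over all features. Replicates are separate experiments, per the labels. For a probe not well above background on any array of a group, an "at least" fold was taken against the lowest signal among reliable probes of those arrays.

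The limma fit was tested on simulated data with independent noise, no slide effect and 200 of 15473 features changed. Spot averaging and probe choice were not simulated. Of genes changed 4-fold, 60.6% to 69.7% were recovered, of those changed 2-fold, 26.9% to 34.3%, and of those changed 1.5-fold, 2.99% to 5.97%. Of the simulated calls, 2.99% to 11.0% were false, the most for total tumour against spleen. In the data, 42.3% to 50.8% of features were called against spleen, so these rates do not describe those comparisons. Array number limits the precision. Named genes are the 10 members, all their probes, the listed pathway genes, and the 3 genes nearest in pattern to each guardian. Some genes of the pathway lists enter the counts and are not reported here by name. The members and lists were chosen with earlier results of these data known. Alternatives covered the background, normalization, filter, probe choice, arrays in the fit, replicate number, slide and each array left out. Same-numbered samples did not deviate together in every pair, and the main fit did not take the numbers as pairs. A shift shared by same-numbered arrays counts as spread in that fit, while the replicate number as a block takes it out. Between IL10+ and IL10- arrays, deviations correlated at 0.41, 0.43 and -0.24 for the same number. Unlike numbers gave -0.57 to 0.30. Deviations from a mean of 3 arrays are tied to each other, so these correlations cannot decide whether same-numbered fractions came from the same experiment. Sequences are from RefSeq.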

Additional observations from a re-analysis of the deposited data

How the results depend on the processing

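Over 22 other settings, 812 of 880 differences of the members kept their direction and side of the threshold. Another 19 lost their call, 4 gained one and 45 turned sign. Bcl2 stayed lower and called against spleen in each tumour group under every setting tried. Without each array in turn, features called numbered 0 to 19 for IL10+ against IL10- tumour Treg, 5076 to 7167 for total tumour, 6790 to 8195 for IL10+ and 6429 to 8277 for IL10- tumour Treg against spleen, and members called 0, 5 to 6, 6 to 7 and 6 to 7. The highest of the first range, 19, came without spleen replicate 2, and 0 without IL10- replicate 2. Other settings gave 2 features between the IL10 fractions with no filter, 3 with normexp, 3 with the replicate block, 0 with the slide block and 0 with the arrays of those groups alone, against 8. With normexp, features called against spleen numbered 1858 for total tumour, 5190 for IL10+ and 2230 for IL10- tumour Treg, against 6571, 7900 and 7622. With the slide block they were 3380, 2390 and 1203, with 3, 2 and 2 members called. The replicate block gave 6390, 7768 and 7508. The cause was not tested.

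No difference whose sign turned between IL10+ and IL10- tumour Treg was called. With the slide block they were 0.41 for Bcl2l1, 0.16 for Mcl1, 0.47 for Bid, -0.45 for Bad, -0.14 for Bbc3, 0.30 for Pmaip1 and 0.073 for Bak1. With normexp they were 0.12 for Bcl2, -0.53 for Bcl2l11 and -0.70 for Bbc3. Quantile normalization gave 0.056 for Mcl1 and 0.052 for Pmaip1, the deposited log10 table gave 0.049 and 0.054, the mean of probes gave 0.021 for Mcl1, and the slide as a random block, added after seeing the data, gave 0.012 for Pmaip1. Without single arrays, the range was -0.78 to 0.40 for Bcl2l1, -0.12 to 0.077 for Mcl1, -0.39 to 0.20 for Bid, -0.074 to 0.52 for Bad, -0.18 to 0.15 for Pmaip1 and -0.54 to 0.020 for Bak1.

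For total tumour against spleen Treg, normexp gave 0.20 for Bad and -0.12 for Bax, the slide block -1.6e-04 for Bbc3, and Bid was 0.012 with quantile normalization, 0.0035 in the deposited table and 0.031 with the random block. Without single arrays, Bid ranged from -0.25 to 0.11 and Bbc3 from -0.11 to 0.33. For IL10- tumour against spleen Treg, Bax was 0.24 with the slide block and 0.020 with the random block, and without single arrays Bax ranged from -0.078 to 0.026 and Bid from -0.50 to 0.026. The mean of probes turned Bcl2l11 to 0.90, 0.91 and 0.47 in total, IL10+ and IL10- tumour Treg against spleen, because its other probes enter. They include the probe that was not well above background on any spleen array. Bad was called in IL10+ tumour against spleen Treg with normexp (0.84, adjusted p = 0.0451).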
